A study of Mus musculus with 16 samples.

Results

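The genes described here encode 9 markers that are read at the surface of mouse pluripotent cells: Alpl, Fut4, Fut9, Podxl, Pecam1, Cd9, Kit, Cd44 and Icam1. They were taken by name, as every probe of the array that carries 1 of these gene symbols, which gave 20 of 41174 probes. Of the 20 probes, 18 rose well above background on 1 or more of the 16 arrays and were tested, and all 9 genes had a tested probe. The probes lie at positions given on the mouse build mm9. A gene with several probes was read through the brightest of them, and its other probes are given beside it. Levels are log2 intensities relative to the 75th percentile of the same array, so that 0 is the level of a probe at that percentile. The level of a probe depends on its sequence, so levels are compared between arrays for 1 probe and never between genes.

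RNA of 16 mouse cell samples was measured, each on 1 array. MEFs (embryonic fibroblasts of C57BL/6 mice, 1 array) are the cell type that the HAC vectors reprogrammed. The ES cells were the lines B6ES (C57BL/6) and TT2 (C57BL/6 x CBA), with 1 array each. The iPS line 20D17 (C57BL/6 x DBA, 1 array) was made with retrovirus vectors. The clones 1-A3, 1-B, 1-C3 and 1-D6, the iHAC1-iPS group, were C57BL/6 fibroblast derivatives that carry iHAC1, a human artificial chromosome with 2 copies each of Klf4, c-Myc, Sox2 and Oct4 under the ubiquitous CAG promoter. The clones 2-B1, 2-C6, 2-E and 2-N, the iHAC2-iPS group, carry iHAC2, which adds 2 further copies of Oct4 and a hairpin against p53. The 4 iHAC-free lines were subcloned from these after loss of the vector, whose EGFP marker was used to sort them: F-B1 from 2-B1, F-C5 from 2-C6, F-E4 from 2-E and F-N7 from 2-N. Values of a group are given in this order throughout. According to the methods, fibroblasts given a HAC vector also received microRNA mimics. Replicates were therefore separate clones or lines, each clone a single colony, and 1 array each for MEFs and 20D17 left no replicate check there. ES cells and HAC-derived clones were kept on feeder layers of fibroblasts, and the sources used here do not say whether feeder cells were removed before RNA was taken. The iHAC2-iPS and iHAC-free arrays were scanned in another session than all the other arrays, so that session and group cannot be told apart in any comparison across it. Of the iHAC1-iPS clones, only 1-D6 shared a slide with the ES lines, and 1-A3, 1-B and 1-C3 shared theirs with MEFs. Slide and group are therefore largely mixed in iHAC1-iPS against ES cells. Each iHAC2-iPS clone shared a slide with the iHAC-free line derived from it. In bulk RNA, fewer cells with a transcript and less of it per cell cannot be told apart.

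Surface markers are used to follow reprogramming because live cells can be stained and sorted on them. Tissue-nonspecific alkaline phosphatase, the product of Alpl, is the enzyme behind the classical stain of ES and iPS colonies, and SSEA1 is a sugar epitope (Lewis X) that fucosyltransferases such as those encoded by Fut4 and Fut9 complete. CD44 is abundant on fibroblasts, and CD44 and ICAM1 have been used together to order mouse cells along reprogramming. PECAM1 and KIT are found on ES cells and also on endothelial and blood-forming cells, respectively.

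The labelled cell types were checked against markers before the genes were read. Of 11 pluripotent cell markers listed, 10 were found on the array by symbol or accession, and Nanog was not. Of these 10, 2 (Pou5f1 and Sox2) are also carried by the vectors, so the other 8 were averaged. Their mean log2 level was -5.02 in MEFs, 3.46 and 3.68 in the ES cells, 3.05 in 20D17 and 3.32 to 3.47 in the iHAC-free lines. It was 0.91 to 1.67 in 3 iHAC2-iPS clones and 3.72 in 2-N, and between -4.15 and -1.36 in the iHAC1-iPS clones. The iHAC1-iPS clones thus stood far below ES cells in these markers, and 2-N stood apart from the other iHAC2-iPS clones. The mean of 10 fibroblast markers, which feeder cells also carry, was 4.36 in MEFs, 1.27 in B6ES, 2.60 in TT2, 3.47 in 20D17 and 1.72 (2-N) to 4.05 (1-D6) in the HAC-derived samples. Endothelial markers, relevant to Pecam1, averaged -3.96 in MEFs, -4.33 to -4.30 in ES cells, -3.08 in 20D17 and -6.01 to -4.68 in the HAC-derived samples, and blood cell markers, relevant to Kit, averaged -3.83 in MEFs and -4.81 to -4.01 in all other groups.

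The sequences on which the least certain results turn are the probes themselves, and 3 of them are shown, each 5′ to 3′ in the sense of the transcript and with no base set in capitals. The main Pecam1 probe (10 spots per array) matches chr11:106542389-106544242 on the minus strand of mm9, a span of 1854 bases for 60 bases of probe, so it joins sequence on both sides of an intron and reads spliced RNA. The second Icam1 probe (chr9:20832290-20832349, plus strand) gives a second reading of the gene with the clearest change. The third Cd44 probe (chr2:102674420-102674479, minus strand) is tied by the array annotation to 2 RefSeq transcripts, whereas the other Cd44 probes are tied to 3, so it reads only some splice forms.
Pecam1 main probe: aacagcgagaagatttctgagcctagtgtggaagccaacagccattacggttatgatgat
Icam1 second probe: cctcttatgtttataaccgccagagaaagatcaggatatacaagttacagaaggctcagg
Cd44 variant probe: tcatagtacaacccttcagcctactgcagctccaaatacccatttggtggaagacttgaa

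Levels of the 9 genes on every array are shown in the plot of members by group. Against ES cells, 3 of the 9 were called in the iHAC1-iPS clones (adjusted p under 0.05 with limma and at least 2-fold), beside 14.3% of all tested probes. Podxl was higher, as 7.17% of probes were, and Pecam1 and Icam1 were lower, as 7.13% were. In the iHAC2-iPS clones 1 of 9 was called, beside 6.80% of probes (3.52% higher and 3.28% lower), and this was Podxl, again higher. In the iHAC-free lines 0 of 9 were called with limma, beside 0.363% of probes (0.188% higher and 0.175% lower), and 2 (Fut9 and Podxl) had an unadjusted p under 0.05.

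Set against the iHAC2-iPS clones, the iHAC1-iPS clones had 5 of 9 genes called, beside 20.0% of probes. Kit and Cd44 were higher in them, and Pecam1, Cd9 and Icam1 were lower. Set against the iHAC-free lines they had 3 of 9 called, beside 20.1% of probes, with Podxl higher (8.99% of probes) and Pecam1 and Icam1 lower (11.1%). Between the iHAC2-iPS clones and the lines derived from them 0 of 9 were called with limma, beside 0.815% of probes (0.213% higher and 0.602% lower in the clones), and 3 (Alpl, Podxl and Kit) had an unadjusted p under 0.05. These comparisons share samples, so their counts are not independent of each other.

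The groups did not overlap in 5, 1 and 4 of the 9 genes for iHAC1-iPS, iHAC2-iPS and iHAC-free samples against ES cells, beside 48.4%, 37.4% and 45.7% of probes. They did not overlap in 3, 3 and 4 genes for iHAC2-iPS against iHAC-free, iHAC1-iPS against iHAC2-iPS and iHAC1-iPS against iHAC-free samples, beside 11.3%, 32.6% and 44.1%. The median absolute log2 difference of the 9 genes from ES cells was 0.83, 0.47 and 0.40 in the iHAC1-iPS, iHAC2-iPS and iHAC-free samples, against 0.47, 0.47 and 0.38 over all tested probes.

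On the single MEF array 5 of 9 genes lay at least 2-fold from the ES mean, beside 41.9% of probes. Alpl, Fut9, Pecam1 and Kit were lower, as 20.3% of probes were, and Cd44 was higher, as 21.7% were. On the single 20D17 array 2 of 9 did, beside 10.8% of probes, with Fut9 lower (4.00%) and Cd44 higher (6.75%).

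**Figure D1:**
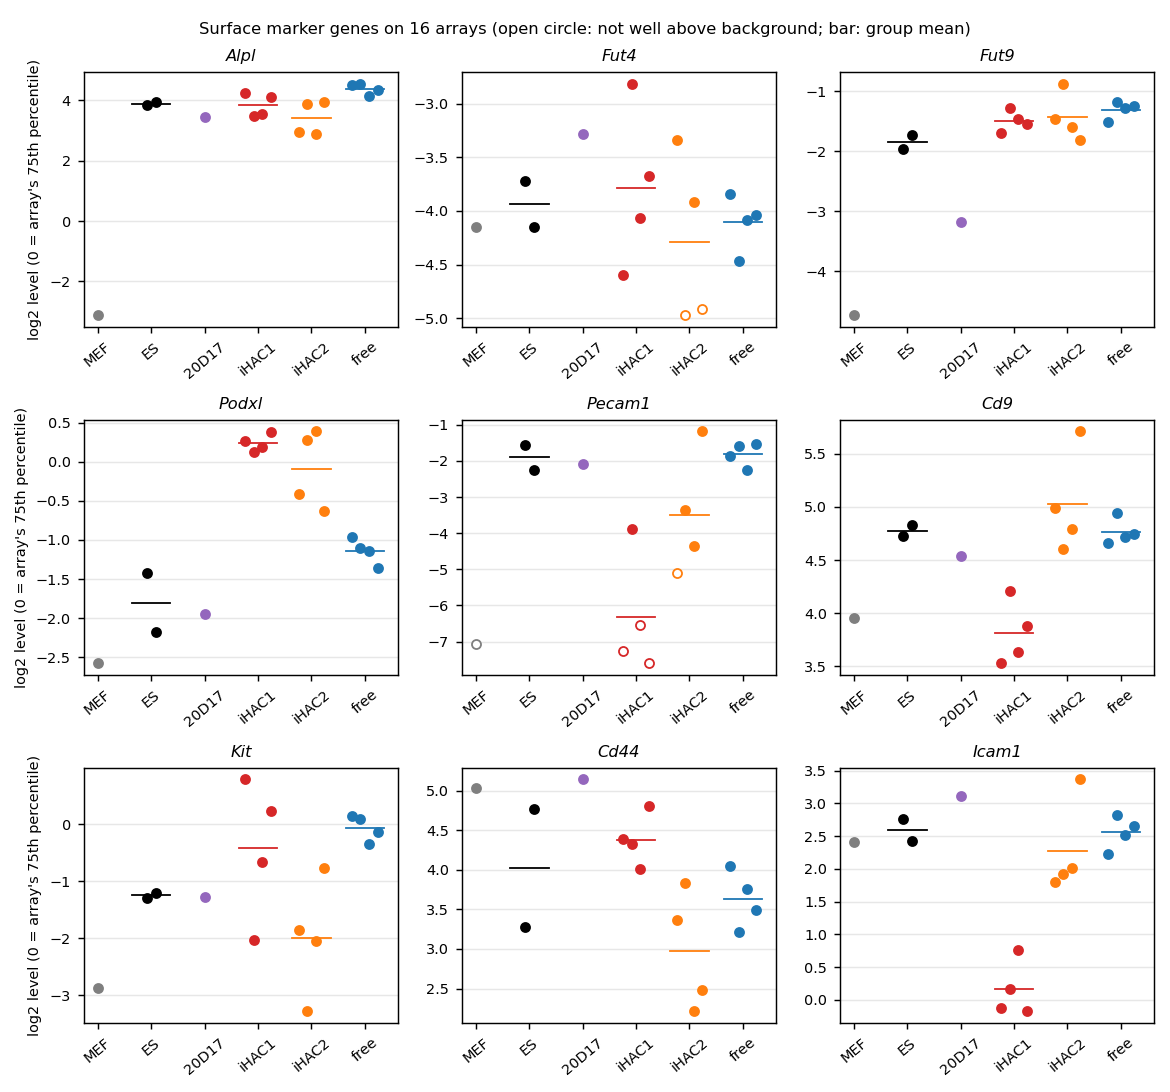
Log2 level of the main probe of each gene (vertical axis, 0 is the 75th percentile of the array) on 16 arrays in 6 groups, with filled points well above background, open points not, and a bar at the mean of groups with several arrays. The 4 iHAC1-iPS clones lie below every other array for Icam1, from -0.18 to 0.77, and above both ES lines for Podxl, from 0.13 to 0.38.

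Alkaline phosphatase RNA parted MEFs from every reprogrammed sample, and no difference between the HAC-derived groups and ES cells was called. The level of Alpl was -3.12 in MEFs, 3.84 in B6ES, 3.92 in TT2 and 3.43 in 20D17. It was 4.24, 3.48, 3.53 and 4.12 in the iHAC1-iPS clones, 2.96, 3.88, 2.89 and 3.93 in the iHAC2-iPS clones, and 4.49, 4.55, 4.14 and 4.33 in the iHAC-free lines. The difference of MEFs from the ES mean was -7.00 (128-fold, single array, no test). The iHAC1-iPS clones, low in the 8 pluripotent cell markers, overlapped the ES cells in Alpl. The difference of iHAC1-iPS from ES cells was -0.04 (SE 0.33, 95% interval -0.75 to 0.67, limma adjusted p = 0.951). In this fit the interval does not reach a 2-fold change. With slide as a term of the model the difference was 0.24. Only 1-D6 shares a slide with the ES lines, so this value is that of 1-D6 alone. It cannot exclude a 2-fold change in the group. In the main fit the difference from ES cells was -0.47 in iHAC2-iPS clones (adjusted p = 0.348 with limma) and 0.50 in iHAC-free lines (adjusted p = 0.410 with limma). All 4 iHAC-free lines lay above all 4 iHAC2-iPS clones and above both ES lines.

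Between the clones and the lines derived from them, Alpl was higher in the iHAC-free line in 4 of 4 pairs, by 1.54, 0.67, 1.25 and 0.40 for B, C, E and N, as 9.55% of all tested probes were in all 4 pairs. The mean difference of iHAC2-iPS from iHAC-free lines was -0.96 (SE 0.27, limma adjusted p = 0.107) and did not pass the threshold. Within each of the 2 slides that hold both groups it was -0.96 and -0.97. Without 2-N it was -1.14 and passed (limma adjusted p = 0.035).

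The alkaline phosphatase relatives and phosphate-handling genes fixed as a list counted 8, of which 7 were tested. Beside 14.3% of all tested probes called in iHAC1-iPS against ES cells, 2 of the 7 rose and 0 fell there. These were Enpp1, which makes pyrophosphate, a substrate of the alkaline phosphatase (log2 difference 1.66, SE 0.34, limma adjusted p = 0.00564), and Phospho1, a phosphatase of mineralizing cells (1.53, limma adjusted p = 0.0372, with 1 of 2 ES arrays well above background). In iHAC2-iPS and iHAC-free against ES cells 0 of 7 were called. The median log2 difference of the 7 genes was 0.16 in iHAC1-iPS against ES cells, beside 0.04 over all tested probes.

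The fucosyltransferase Fut9, taken to be the chief maker of Lewis X in early mouse cells, was low in MEFs and in the retroviral line. No difference between ES cells and a HAC-derived group was called. The level was -4.74 in MEFs, -1.95 in B6ES, -1.72 in TT2 and -3.18 in 20D17. It was -1.69 to -1.28 in the iHAC1-iPS clones, -1.80 to -0.87 in the iHAC2-iPS clones and -1.52 to -1.18 in the iHAC-free lines. No HAC-derived sample reached as low as 20D17 on this probe. The log2 difference from the ES mean was -1.34 in 20D17 (2.53-fold, single array, no test) and -2.90 in MEFs (7.45-fold). Differences of the HAC-derived groups from ES cells were 0.35, 0.41 and 0.53 for the iHAC1-iPS, iHAC2-iPS and iHAC-free groups (limma adjusted p = 0.316, 0.248 and 0.222), and none was called.

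Fut9 had 6 probes, of which 5 were tested. The 5 all read lower in 20D17 than in the ES mean, with differences of -1.66 to -0.95, and for 2 of them 20D17 was not well above background. On the 4 tested probes other than the main one, MEFs were not well above background, which puts ES cells at least 2.06-fold to 6.05-fold above them. The probes did not order the HAC-derived groups alike: the probe at chr4:25546977-25547036 gave -1.10 for iHAC1-iPS against ES cells, while the probe at chr4:25541193-25541252 gave 1.09. Neither difference was called (limma adjusted p = 0.133 and 0.110). Across the 16 arrays the main probe correlated with the 4 others at Pearson r = 0.691 to 0.967, a description over arrays that share groups.

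Fut4, the other enzyme able to make Lewis X, was dim on all arrays and was not called in any of the 6 comparisons. Its level was -4.15 in MEFs, -3.72 and -4.15 in ES cells, -3.28 in 20D17 and between -4.97 and -2.81 in the HAC-derived samples, with 2-C6 and 2-N not well above background. The groups with replicates overlapped each other, while 20D17 lay above both ES lines and all iHAC-free lines. The largest of its differences in the 6 comparisons was 0.50 (iHAC1-iPS against iHAC2-iPS, SE 0.41, limma adjusted p = 0.357).

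The other genes of fucosylation and Lewis X synthesis counted 25, all tested. In iHAC1-iPS against ES cells 4 rose (Fut10, B4galt2, St3gal4 and St3gal6) and 2 fell (Fut2 and Fut7), beside 14.3% of all probes called there. The median log2 difference was 0.14, beside 0.04 over all probes. The fucosyltransferase gene Fut10 was 1.33 higher (SE 0.31, limma adjusted p = 0.00993) and the sialyltransferase gene St3gal6 1.90 higher (limma adjusted p = 0.0247). Fut2, which adds fucose to the terminal galactose, differed by -1.90 (SE 0.38, limma adjusted p = 0.00483), with 1 of 4 iHAC1-iPS arrays well above background. Fut7, which makes the sialylated form of Lewis X, was well above background on none of the iHAC1-iPS arrays, so ES cells were at least 2.48-fold and iHAC-free lines at least 4.53-fold above them (limma adjusted p = 0.0382 and 6.43e-04). In iHAC2-iPS clones 1 of the 25, B4galt4, was called against ES cells (1.41, limma adjusted p = 0.0258), beside 6.80% of all probes. In iHAC-free lines 0 were, beside 0.363%.

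Podocalyxin, a sialomucin of the CD34 family that is abundant on pluripotent cells, had more RNA in all cells that carried a HAC vector than in ES cells. The level of Podxl was -2.58 in MEFs, -1.43 in B6ES, -2.17 in TT2 and -1.94 in 20D17. It was 0.27, 0.13, 0.18 and 0.38 in the iHAC1-iPS clones, -0.42, 0.28, 0.39 and -0.63 in the iHAC2-iPS clones, and -0.96, -1.10, -1.14 and -1.36 in the iHAC-free lines. On this main probe the 8 vector-carrying clones lay above the 4 iHAC-free lines, and these in turn lay above both ES lines, 20D17 and MEFs. The second probe did not keep this order: 2-C6 (-2.49) lay within the range of the iHAC-free lines (-2.93 to -2.20). There F-B1 (-2.93) lay below B6ES (-2.80). Relative to ES cells, Podxl was 4.11-fold higher in the iHAC1-iPS clones (log2 difference 2.04, SE 0.29, limma adjusted p = 7.81e-04) and 3.26-fold higher in the iHAC2-iPS clones (1.70, limma adjusted p = 0.00733). Within the slide that holds both ES lines and 1-D6, that clone lay 2.18 above the ES mean. In iHAC-free lines the difference was 0.66 (95% interval 0.03 to 1.29, limma adjusted p = 0.227). The call in the iHAC2-iPS clones was lost without TT2 (1.33, limma adjusted p = 0.0813) and with only the compared groups in the model (limma adjusted p = 0.144).

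On the main probe, Podxl was lower in the iHAC-free line in 4 of 4 pairs. Differences from the parent clone were -0.54, -1.38, -1.53 and -0.73 for B, C, E and N. Among all tested probes, 16.4% were lower in the iHAC-free line in all 4 pairs. The mean difference of iHAC2-iPS from iHAC-free lines was 1.04 (SE 0.24, limma adjusted p = 0.0565), just short of the threshold, with 1.45 and 0.63 within the slides. Without 2-N it was 1.22 (limma adjusted p = 0.0119), and with the probes restricted to those well above background on all arrays the adjusted p of 1.04 was 0.0314 with limma. iHAC1-iPS clones were 1.38 above iHAC-free lines (SE 0.24, limma adjusted p = 9.81e-04) and did not differ beyond their spread from iHAC2-iPS clones (0.34, 95% interval -0.18 to 0.85). The second Podxl probe (r = 0.809 with the first over 16 arrays) was also called against ES cells. It gave 1.42 in iHAC1-iPS (limma adjusted p = 0.0429) and 1.74 in iHAC2-iPS clones (limma adjusted p = 0.0314). It was not called between iHAC1-iPS and iHAC-free lines (0.62, limma adjusted p = 0.211). On this probe F-C5 (-2.43) lay above 2-C6 (-2.49), while the other pairs went as on the main probe.

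Among 7 further genes of the CD34 family and the linkers that tie such mucins to the cytoskeleton, 1 rose and 2 fell in iHAC1-iPS clones in each of the 3 comparisons that involve them. Over all tested probes, 14.3%, 20.0% and 20.1% were called against ES cells, iHAC2-iPS clones and iHAC-free lines. Podxl2, the paralogue named endoglycan, was 3.11 above ES cells (SE 0.51, limma adjusted p = 0.00179), with 1 of 2 ES arrays well above background. Against iHAC2-iPS clones, none of which was well above background, it was at least 3.07-fold higher (limma adjusted p = 0.00254). Cd34 was lower than in ES cells (-1.82, limma adjusted p = 0.0213), and so was Slc9a3r1, the scaffold NHERF1 that binds podocalyxin (-1.89, limma adjusted p = 0.00811). In iHAC2-iPS and iHAC-free lines 0 of the 7 were called against ES cells.

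Pecam1, an immunoglobulin superfamily protein of endothelial cells that also marks mouse ES cells, was at ES levels in iHAC-free lines and near background in iHAC1-iPS clones. Its level was -1.55 in B6ES, -2.24 in TT2 and -2.08 in 20D17, and MEFs (-7.06) were not well above background. In the iHAC1-iPS clones it was -7.25, -3.88, -6.55 and -7.60, of which only 1-B was well above background. In the iHAC2-iPS clones it was -5.10 (2-B1, not well above background), -3.35, -4.35 and -1.19, and in the iHAC-free lines -1.85, -1.60, -2.25 and -1.54. The iHAC1-iPS clones all lay below all ES, 20D17 and iHAC-free samples, while 2-N lay with these and the other 3 iHAC2-iPS clones did not reach them.

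The log2 difference of Pecam1 in iHAC1-iPS from ES cells was -4.42 (SE 1.05, limma adjusted p = 0.0119) and from iHAC-free lines -4.51 (SE 0.86, limma adjusted p = 0.00182). Because 3 of 4 arrays gave only background, these sizes are uncertain. With each dim array set to the lowest signal that was well above background, they were -3.18 and -3.27, and with normexp background correction -1.45 and -1.47, both called. The call against ES cells was lost without B6ES (-4.08, limma adjusted p = 0.111) or without TT2 (-4.77, limma adjusted p = 0.0501). Against iHAC2-iPS clones the difference was -2.82 (limma adjusted p = 0.0227), -1.79 with dim arrays at that lowest signal. It was not called with normexp correction (-0.77, limma adjusted p = 0.0797) or without 1-A3, 1-D6 or 2-N (-2.51, -2.40 and -2.05, limma adjusted p = 0.0617, 0.0695 and 0.0566).

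In iHAC2-iPS clones the difference of Pecam1 from ES cells was -1.60 (95% interval -3.89 to 0.69, limma adjusted p = 0.318), an interval that holds both no change and a large fall. The iHAC-free line differed from its clone by 3.25, 1.76 and 2.10 in B, C and E and by -0.35 in N, with a mean that was not called (limma adjusted p = 0.320). The clone 2-N also had the highest mean of the 8 pluripotent cell markers among the iHAC2-iPS clones. A second Pecam1 probe, which lies inside the span of the first (chr11:106543058-106543117), was well above background on 1 array, F-E4. The array annotation ties this second probe to no RefSeq transcript, so it need not read the spliced RNA.

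**Figure D2:**
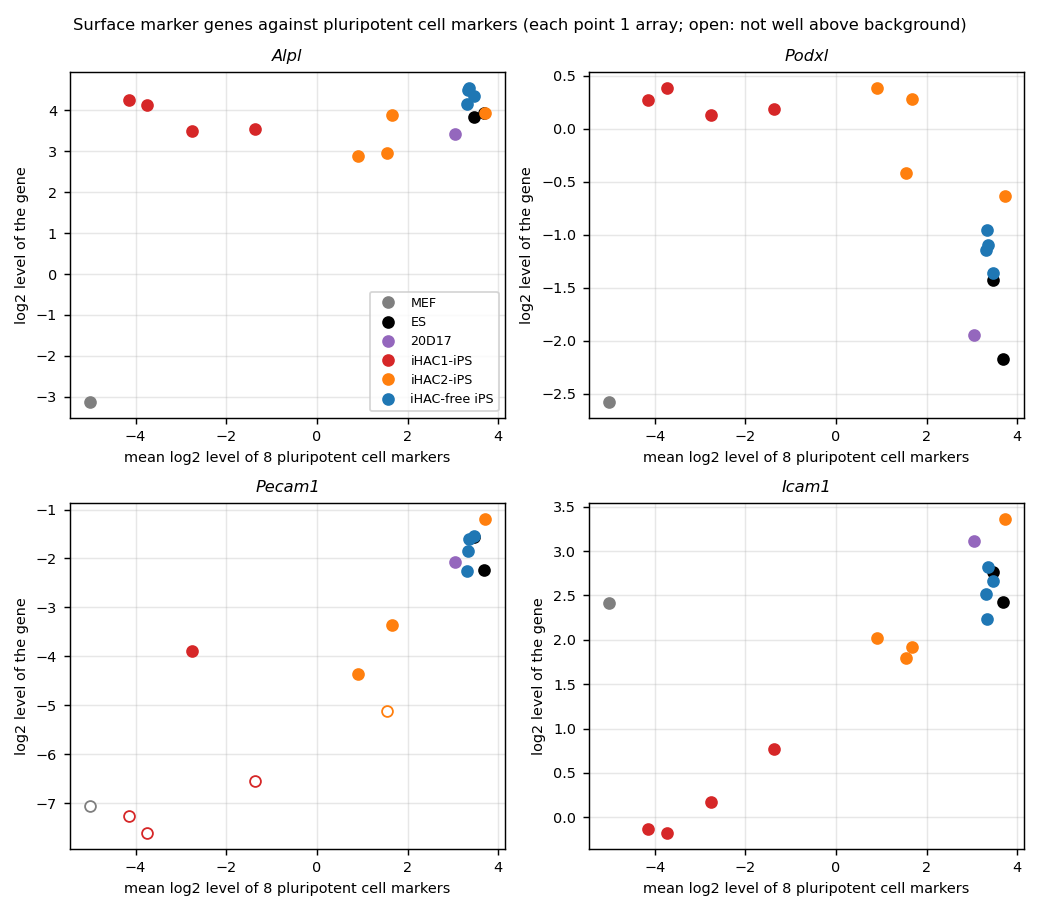
Log2 level of Alpl, Podxl, Pecam1 and Icam1 (vertical axes) against the mean log2 level of 8 pluripotent cell markers that the vectors do not carry (horizontal axes), 1 point per array, open where the gene was not well above background. The iHAC1-iPS clones, with marker means of -4.15 to -1.36, lie at the height of ES cells for Alpl and below them for Pecam1 and Icam1, and MEFs lie near TT2 for Icam1.

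CD9, a tetraspanin of ES cells, was lower in the iHAC1-iPS clones than in ES cells, 20D17 and the other HAC-derived samples. The level of Cd9 was 3.95 in MEFs, 4.73 and 4.83 in ES cells and 4.53 in 20D17. It was 3.53, 4.21, 3.63 and 3.88 in the iHAC1-iPS clones, 4.99, 4.60, 4.80 and 5.71 in the iHAC2-iPS clones and 4.66, 4.94, 4.71 and 4.75 in the iHAC-free lines. None of the iHAC1-iPS clones reached the lowest of those samples, and they lay around the MEF level. They were 2.32-fold below iHAC2-iPS clones (log2 difference -1.21, SE 0.22, limma adjusted p = 0.00187). This difference was -0.98, just under 2-fold, without 2-N. Against ES and iHAC-free lines the differences of -0.96 and -0.95 passed the test (limma adjusted p = 0.0274 and 0.00613) but not the 2-fold limit. Without 1-B both exceeded it, at -1.10 and -1.09, and against the iHAC-free lines so did the values with normexp correction (-1.05) and quantile normalization (-1.02). Within the slide that holds 1-D6 and the ES cells, the difference was -0.90. iHAC-free lines differed from ES cells by -0.01 (95% interval -0.61 to 0.59). The other probe named Cd9 lies on the opposite strand (chr6:125445268-125445327) and was not well above background on any array.

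Of 22 other tetraspanins and tetraspanin partners, 4 rose and 0 fell in iHAC1-iPS against ES cells, beside 14.3% of all probes called there, with a median log2 difference of 0.46 beside 0.04 over all probes. Tspan12 was 12.5-fold higher (3.65, SE 0.69, limma adjusted p = 0.00373), followed by Tspan6 (1.78), Igsf8, which binds CD9 (1.20), and the leukocyte tetraspanin Cd53 (1.06). The integrin subunit Itga3, another partner, was lower in iHAC1-iPS than in iHAC2-iPS clones (-2.41, limma adjusted p = 0.00401). In iHAC2-iPS and in iHAC-free against ES cells 0 of 22 were called.

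KIT, the receptor for stem cell factor, varied widely among clones of the same vector. The level of Kit was -2.88 in MEFs, -1.29 and -1.20 in ES cells and -1.29 in 20D17. It was 0.78, -2.04, -0.66 and 0.24 in the iHAC1-iPS clones, -1.85, -3.29, -2.06 and -0.77 in the iHAC2-iPS clones, and 0.14, 0.10, -0.35 and -0.14 in the iHAC-free lines. The iHAC1-iPS clones lay on both sides of the ES cells, and 2-C6 lay below MEFs.

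Kit was 2.97-fold higher in iHAC1-iPS than in iHAC2-iPS clones (1.57, SE 0.58, limma adjusted p = 0.0495). That call was at the threshold and was lost in 12 of the 16 fits that left out 1 array, with values of 1.14 to 2.11, and it stood without 1-B, 2-N, MEFs or 20D17. It was also lost with quantile normalization, with 1 probe per gene and with only the compared groups in the model (limma adjusted p = 0.0517, 0.0504 and 0.127). iHAC-free lines lay above ES cells without overlap (1.19, 95% interval -0.35 to 2.73, limma adjusted p = 0.362), as 45.7% of tested probes did not overlap between these groups. Kit was higher in the iHAC-free line than in its clone in 4 of 4 pairs, by 1.99, 3.38, 1.71 and 0.63 for B, C, E and N, beside 9.55% of probes that were higher in all 4. The mean difference of iHAC2-iPS from iHAC-free lines, -1.93 (SE 0.58), did not pass the threshold (limma adjusted p = 0.129). It was -2.55 and -1.31 within the slides, and without 2-N it was -2.34 and passed (limma adjusted p = 0.0395).

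Of 14 class III receptor tyrosine kinases, ligands and Kit adaptors, 5 were higher and 3 lower in iHAC1-iPS than in iHAC2-iPS clones. Over all tested probes 20.0% were called there. Against ES cells, where 14.3% of probes were called, 1 of the 14 was called in iHAC1-iPS clones. This was Pdgfrb, also a fibroblast marker (1.93, SE 0.51, limma adjusted p = 0.0186). The ligand gene Kitl was not called in any of the 6 comparisons, with differences of -0.21 to 0.68. The phosphatase gene Ptpn6, whose product dampens Kit signals, was lower in iHAC1-iPS than in iHAC2-iPS clones (-1.60, limma adjusted p = 0.0119), with the same sign on 1 of its 2 other tested probes.

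**Figure D3:**
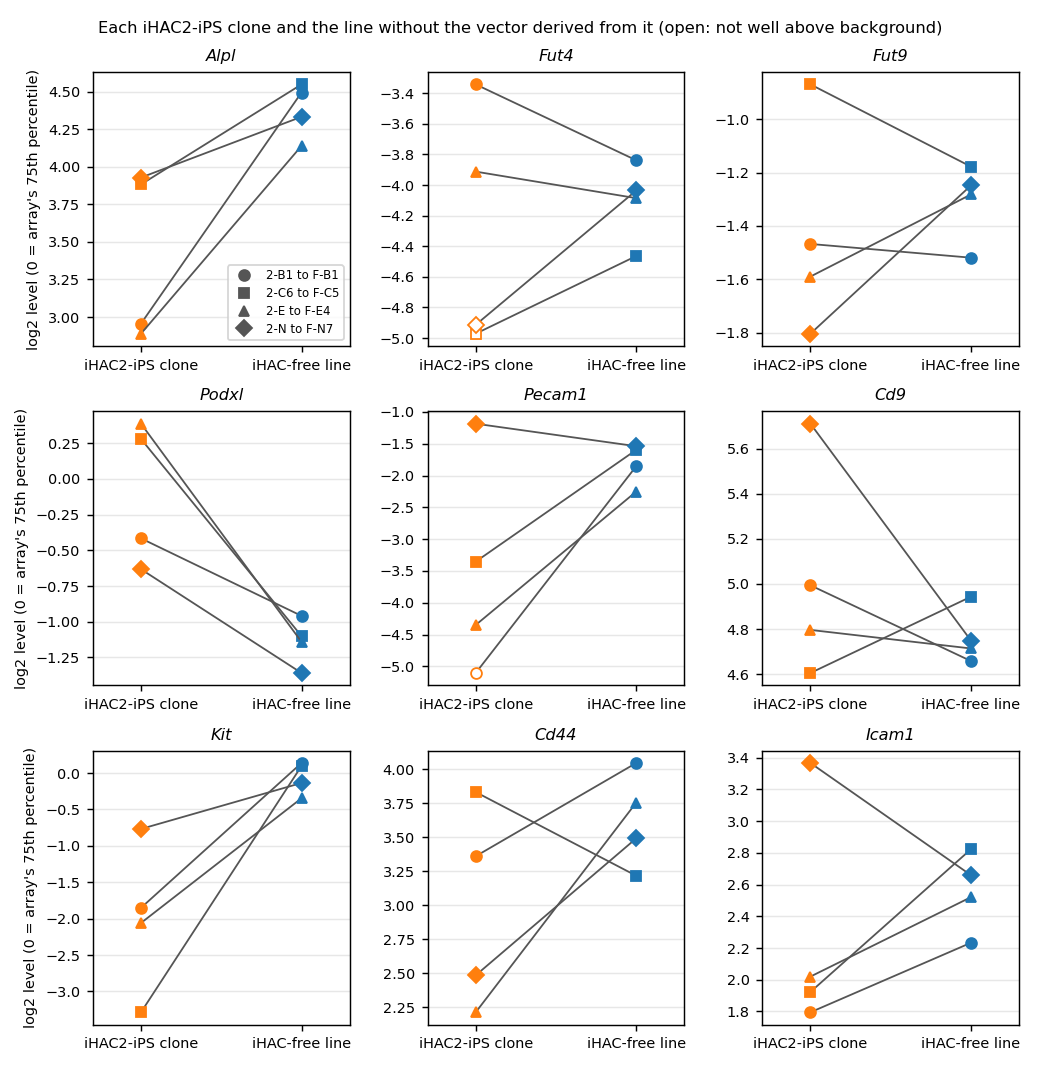
Log2 level (vertical axes, 0 is the 75th percentile of the array) of each gene in the 4 iHAC2-iPS clones (left) and in the iHAC-free lines derived from them (right), 1 marker shape per line of origin and open markers not well above background. On the main probes, which are the ones drawn, Alpl and Kit are higher and Podxl is lower on the right in all 4 lines. The other 6 genes differ in both directions.

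CD44, the hyaluronan receptor, was higher in iHAC1-iPS than in iHAC2-iPS clones and highest in MEFs and 20D17. The main probe read 5.03 in MEFs, 3.27 in B6ES, 4.77 in TT2 and 5.14 in 20D17. It read 4.38, 4.33, 4.00 and 4.80 in the iHAC1-iPS clones, 3.36, 3.83, 2.21 and 2.48 in the iHAC2-iPS clones and 4.04, 3.22, 3.75 and 3.49 in the iHAC-free lines. The ES lines differed widely, and their fibroblast marker means were also apart (1.27 in B6ES and 2.60 in TT2). The part of feeder cells in these values was not tested. Differences from ES cells had wide intervals, -0.69 to 1.40 in iHAC1-iPS, -2.10 to -0.01 in iHAC2-iPS and -1.44 to 0.65 in iHAC-free lines, and none was called (limma adjusted p = 0.646, 0.158 and 0.674).

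The 4 iHAC1-iPS clones lay above the 4 iHAC2-iPS clones in Cd44 (2.65-fold, log2 difference 1.41, SE 0.39, limma adjusted p = 0.0151). The second probe gave 1.48 (limma adjusted p = 0.0111) and followed the first at r = 0.994 over 16 arrays. The mean of all 3 probes, the dim variant probe included, gave 0.91, under 2-fold (limma adjusted p = 0.0358). The fibroblast marker mean was 3.10 to 4.05 in those iHAC1-iPS clones and 1.72 to 3.79 in those iHAC2-iPS clones, and its part in the difference was not tested. Against iHAC-free lines the main probe gave 0.75 (limma adjusted p = 0.152). The iHAC-free line differed from its clone by 0.69, -0.62, 1.54 and 1.01 for B, C, E and N, and the mean difference of iHAC2-iPS from iHAC-free samples was not called (-0.65, limma adjusted p = 0.398). The variant probe shown above was well above background on 1 array, 20D17.

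Of 14 genes of hyaluronan and CD44 biology, 2 fell in iHAC1-iPS against ES cells and 0 rose, a share equal to the 14.3% of all probes called there. The 2 were Esrp1 and Esrp2, epithelial splicing regulators known to act on Cd44 variable exons. Esrp1 differed by -4.17 (SE 0.88, limma adjusted p = 0.00673), with 2 of 4 iHAC1-iPS arrays well above background, and Esrp2 gave -2.79 (SE 0.46, limma adjusted p = 0.00185). Both were also lower than in iHAC2-iPS clones (-4.15 and -2.84, limma adjusted p = 0.00131 and 3.1e-04) and iHAC-free lines. The hyaluronidase gene Hyal1 was higher in the iHAC2-iPS clones than in ES cells (1.55, limma adjusted p = 0.0210).

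ICAM1, an adhesion receptor for leukocyte integrins, gave the clearest separation of the iHAC1-iPS clones. The level of Icam1 was 2.42 in MEFs, 2.77 in B6ES, 2.43 in TT2 and 3.11 in 20D17. It was -0.13, 0.17, 0.77 and -0.18 in the iHAC1-iPS clones, 1.79, 1.92, 2.02 and 3.37 in the iHAC2-iPS clones, and 2.23, 2.82, 2.52 and 2.66 in the iHAC-free lines. The iHAC1-iPS clones lay below all 12 other samples, MEFs included, while MEFs lay close to TT2. Relative to ES cells, Icam1 was 5.43-fold lower in these clones (log2 difference -2.44, SE 0.40, limma adjusted p = 0.0018). It was 4.34-fold lower than in iHAC2-iPS clones (-2.12, limma adjusted p = 7.01e-04) and 5.28-fold lower than in iHAC-free lines (-2.40, limma adjusted p = 2.62e-04). Within the slide shared with the ES cells, the difference of 1-D6 was -2.77. The calls stood in every fit that left out 1 array, with values of -2.64 to -2.27 against ES cells.

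The second Icam1 probe, shown above, gave -2.40, -2.13 and -2.65 in the same 3 comparisons, all called (limma adjusted p = 0.00406, 0.00147 and 3.31e-04), and followed the main probe at r = 0.990 over 16 arrays. iHAC2-iPS and iHAC-free lines differed from ES cells by -0.32 and -0.04 (95% intervals -1.20 to 0.55 and -0.91 to 0.84). Icam1 was higher in the iHAC-free line in 3 of 4 pairs, by 0.44, 0.90 and 0.50, and in the line of 2-N the difference was -0.71.

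The promoter of Icam1 is shown because the gene is known to respond to cytokine signals that end at kappaB and STAT motifs. It was taken from RefSeq on GRCm38.p6 (chr9:21015690-21015989, plus strand) and covers 300 bases around the annotated start. Capitals mark a kappaB motif, searched as GGAAATTCC and starting at position -153, a STAT motif, searched as TTCCNGGAA and starting at -42, and a TATA box, searched as TATAAA and starting at 14 after the start. All motifs were searched on both strands, and these 3 do not overlap. Not marked are 2 GC boxes, searched as GGGCGG, which start at -17 and 24.
Icam1 promoter: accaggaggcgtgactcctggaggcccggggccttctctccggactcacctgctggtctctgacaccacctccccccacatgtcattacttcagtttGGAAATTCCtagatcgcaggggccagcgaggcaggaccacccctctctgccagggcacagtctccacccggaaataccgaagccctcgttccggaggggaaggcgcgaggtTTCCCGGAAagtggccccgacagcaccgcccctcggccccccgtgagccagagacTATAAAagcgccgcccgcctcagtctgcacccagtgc
Of 32851 mouse promoters of the same length, 0.317% held the kappaB motif, 1.15% the STAT motif and 13.6% the TATA box. The table held promoters of 6 of the 9 genes, and none of those of Alpl, Fut4, Cd9, Kit and Cd44 held the kappaB or the STAT motif. A match is a description of letters and was not tied to the RNA levels.

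Of 10 NF-kB responsive genes, 1 fell and 0 rose in iHAC1-iPS against ES cells, where 14.3% of all tested probes were called. The 1 gene that fell was Relb, itself an NF-kB subunit (-1.13, SE 0.33, limma adjusted p = 0.0306). It was also lower than in iHAC2-iPS clones (-1.50, limma adjusted p = 0.00166). The chemokine gene Ccl2 was higher in iHAC1-iPS than in iHAC2-iPS clones (1.98, limma adjusted p = 0.0180). The median log2 difference of the list from ES cells was -0.10 in iHAC1-iPS, 0.47 in iHAC2-iPS and 0.29 in iHAC-free lines, beside 0.04, 0.06 and 0.03 over all probes.

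Of 17 other immunoglobulin superfamily adhesion genes and integrins, 3 rose and 2 fell in iHAC1-iPS against ES cells. Over all tested probes 14.3% were called there. The tight junction gene F11r fell (-3.02, SE 0.57, limma adjusted p = 0.00366), and so did Icam4 (-2.76, limma adjusted p = 0.0059, with 2 of 4 iHAC1-iPS arrays well above background). Jam3 rose 5.83-fold (2.54, SE 0.43, limma adjusted p = 0.00195), with Ncam1 (1.58, limma adjusted p = 0.0275) and Cd47 (1.02, limma adjusted p = 0.0486). Itgal, a chain of the integrin that binds ICAM1, passed the test but not the 2-fold limit between iHAC1-iPS and iHAC2-iPS clones (-0.86, limma adjusted p = 0.00172). In iHAC2-iPS and iHAC-free against ES cells 0 of the 17 were called.

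**Figure D4:**
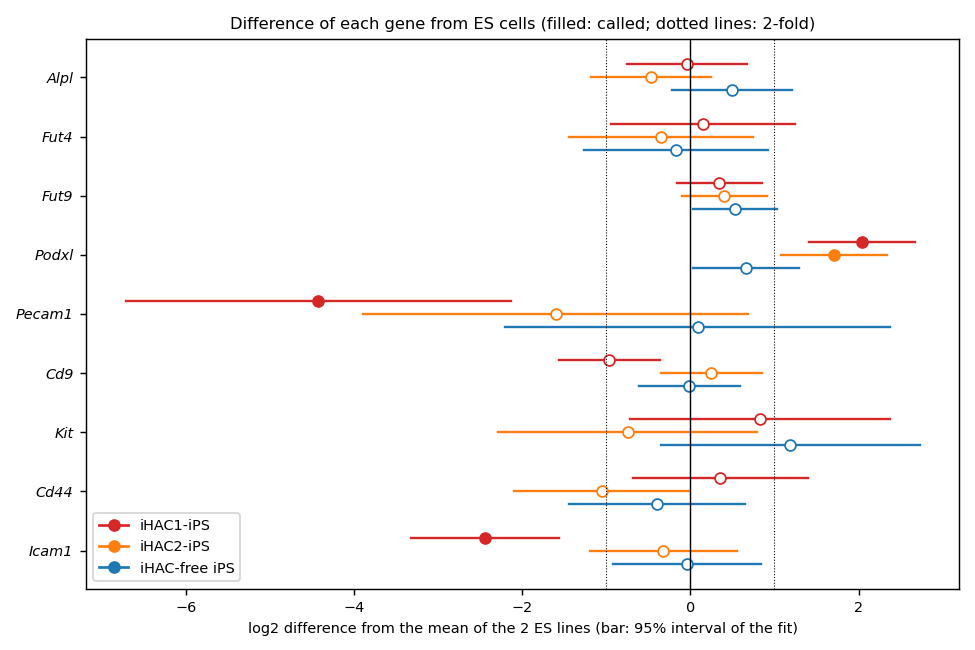
Log2 difference of each gene from the mean of the 2 ES lines (horizontal axis) in iHAC1-iPS, iHAC2-iPS and iHAC-free lines, 4 samples each, with bars for the 95% interval of the limma fit and filled points for called differences. The called points are Podxl at 2.04 and 1.70 to the right of 0 and Pecam1 and Icam1 in iHAC1-iPS clones at -4.42 and -2.44 to the left.

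Of 13 other surface antigens by which pluripotent or somatic cells are sorted, 3 rose and 3 fell in iHAC1-iPS against ES cells. Over all tested probes 14.3% were called there. The epithelial proteins E-cadherin (Cdh1, -5.78, SE 1.83, limma adjusted p = 0.0415, with 3 of 4 iHAC1-iPS arrays well above background) and Epcam (-3.74, SE 0.86, limma adjusted p = 0.0101) fell, and endoglin (Eng) gave -1.06. The complement regulator Cd59a rose 26.0-fold (4.70, SE 0.95, limma adjusted p = 0.00529). Like Podxl it was also higher in the iHAC2-iPS clones than in the ES lines (3.76, limma adjusted p = 0.0291), and it was the only gene of all lists called between iHAC2-iPS and iHAC-free lines (3.68, limma adjusted p = 0.0461), a call that was lost with slide as a block. The other genes that rose were Cd24a (1.93) and Ly6a, which encodes the fibroblast and stem cell antigen Sca-1 (1.93). Over all lists, 126 of 127 genes were tested, and 30, 3 and 0 were called against ES cells in the iHAC1-iPS, iHAC2-iPS and iHAC-free groups (23.8%, 2.38% and 0%), beside 14.3%, 6.80% and 0.363% of all probes. With slide as a term of the model, iHAC1-iPS against ES cells rests on 1-D6 alone, so no count is given. The iHAC2-iPS and iHAC-free groups share no slide with ES cells, so no correction for slide was possible there. Slide entered these fits only as a correlation between arrays, and the counts were 9 and 1.

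The order of the means of the groups with replicates differed from gene to gene. For Podxl it ran from iHAC1-iPS (0.24, SD 0.11, n = 4) over iHAC2-iPS (-0.10, SD 0.50, n = 4) and iHAC-free lines (-1.14, SD 0.17, n = 4) to ES cells (-1.80, SD 0.53, n = 2). For Icam1 it ran from ES (2.60, SD 0.24, n = 2) over iHAC-free lines (2.56, SD 0.25, n = 4) and iHAC2-iPS (2.28, SD 0.73, n = 4) to iHAC1-iPS clones (0.16, SD 0.44, n = 4). In both orders only the step from iHAC2-iPS to iHAC1-iPS clones in Icam1 was a called difference between neighbours. For Alpl the iHAC-free lines came first (4.38, SD 0.18, n = 4), followed by ES (3.88, SD 0.06, n = 2), iHAC1-iPS (3.84, SD 0.39, n = 4) and iHAC2-iPS clones (3.41, SD 0.57, n = 4), and no difference between neighbours was called. In all 9 genes the SD of the iHAC-free lines was below that of the iHAC2-iPS clones. How many of all tested probes behave alike was not counted, so this cannot be called particular to the 9 genes.

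Among all named probes, those whose levels followed a gene most closely over the 16 arrays are given as a description, since arrays of 1 group are not independent. The closest to Alpl were Slc35f2, Gdf3 and Cdca7 (Pearson r = 0.961, 0.956 and 0.956), and the single MEF array lies far from the rest in this gene. The closest to Pecam1 were Ankrd35 (r = 0.984), the egg coat gene Zp3 (0.964) and Gm2381 (0.962). For Icam1 they were the ubiquitin ligase gene Trim25 (0.963), Phf11 (0.961) and Rlbp1 (0.955). Podxl was followed by Sh3bp4 (0.953), Cd9 by the catenin gene Ctnna1 (0.945), Cd44 by Tnks1bp1 (0.966) and Fut9 by Pou2f1 (0.930). Kit had Gpt2 as its closest gene (0.887), and Fut4 had none above 0.725, the value of Cyp4a12a. Between the 9 genes themselves the highest coefficients were 0.851 (Alpl and Fut9), 0.797 (Pecam1 and Cd9), 0.773 (Pecam1 and Icam1) and 0.768 (Cd9 and Icam1), and the lowest was -0.687 (Podxl and Icam1). The single MEF array is the lowest of the 16 in both Alpl (-3.12) and Fut9 (-4.74), and the coefficient without it was not computed.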

How the data were processed

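Cy3-labelled cRNA made from total RNA was hybridised to 1-colour Agilent Whole Mouse Genome arrays. Per the file headers, the authors' scans were read with Feature Extraction 10.7.1.1 (MEFs, ES cells, 20D17 and iHAC1-iPS cells) or 10.7.3.1 (iHAC2-iPS and iHAC-free iPS cells), which gave the deposited background-subtracted intensities. The deposited log2 table, made by the authors with GeneSpring GX 11, followed the scanner values at r of at least 0.99999 after centring each probe, with slopes of 1 to 1.0001 and column medians of -0.33 to 0.28, so its scale and direction are those of the scanner values and its probe baseline is not known; it was used as an alternative. Well-above-background spots made up 54.16% (2-B1) to 65.8% (MEFs) of an array, with 0 saturated, and the number of arrays limits precision.

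Intensities were taken as log2 and scaled by subtracting the 75th percentile of each array. Control and outlier spots were left out and repeat spots averaged. A probe was tested if well above background on at least 1 array (31415 of 41174). One limma 3.58.1 fit (R 4.3.3) covered all 16 arrays in 6 groups, with Benjamini-Hochberg adjustment over all tested probes, and a called probe had an adjusted p under 0.05 and at least a 2-fold difference. A dim array's bound is the lowest signal well above background on that array. Nothing says that samples came from separate donors, so p-values measure the spread between clones or lines. The fit was tested on simulated data with known changes in iHAC1-iPS against ES cells. It recovered 57% of changes of 1.5 log2 units and 80% of changes of 3, with 12 false calls among 31387 probes. A difference that was not called can therefore still be real.

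The genes, lists and markers were chosen with earlier results of these data known. Genes named from a list were the 4 or fewer with the largest called differences in a comparison and those that define the list (Kitl, Itgal); St3gal4, Cd47 and Eng were named after their values were seen. The pairing of iHAC2-iPS clones with iHAC-free lines comes from the study's account of their derivation. Deviations from group means correlated at -0.22 to 0.08 within a line and -0.10 to 0.22 between lines. Alternatives were the deposited table, quantile normalization, background correction by normexp with an offset of 50, no filter or a filter on all 16 arrays, other probes or 1 probe per gene, only the compared groups, slide or line of origin as a block, and each array left out. Slide was a term of the model in iHAC1-iPS against ES cells and in iHAC2-iPS against iHAC-free lines. In the first of these it left only 1-D6 to compare with the ES lines. In the other comparisons slide entered as a correlation between arrays of a slide, estimated at -0.12. The authors' own comparisons were not used. Promoters came from RefSeq (GRCm38.p6), whose coordinates are not those of mm9.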

Additional observations from a re-analysis of the deposited data

Results flagged for a closer look

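Icam1 stood apart in 1 iHAC2-iPS clone. Its log2 level was 3.37 in 2-N and 1.79 to 2.02 in the other 3 clones, a gap of 0.857 of the whole range, above Dixon's critical value for 4 samples. In all, 27 groups of 4 samples were looked at in this way and 1 stood out. Chance marks about 1 in 20 such groups, or 1.35 of 27. The same clone had the highest Pecam1 and Cd9 and the highest mean of pluripotent cell markers among the iHAC2-iPS clones.

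The second Pecam1 probe, which is not the one through which the gene was read, was well above background on F-E4 alone, at -4.75, and read -8.06 to -6.02 on the other 15 arrays. Its difference between the iHAC1-iPS and iHAC-free samples (-1.44, limma adjusted p = 0.0237) therefore rests on readings of which 1 was well above background. The variant probe of Cd44 was well above background on 20D17 alone, at -5.43, and read -7.41 to -4.88 on the others, so that 1 array with a higher reading was not well above background. Both probes have 1 spot per array, and neither signal has a replicate.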

How the results depend on the processing

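The calls of Podxl, Icam1 and Pecam1 in iHAC1-iPS against ES cells kept their direction under every alternative run, and those of Podxl and Icam1 were lost under none. Slide as a term is no check on the whole group, because only 1-D6 is then set against the ES lines. In fits of the compared groups alone, members called were 0 for iHAC2-iPS against ES cells and 3 (Cd9, Cd44 and Icam1) for iHAC1-iPS against iHAC2-iPS clones; with quantile normalization or the filter on all arrays, 1 (Podxl) for iHAC2-iPS against iHAC-free lines. The 20D17 count was 1 with normexp. For genes of all lists, the slide block gave 11 (iHAC1-iPS against ES), 9 (iHAC2-iPS against ES, 5 with quantile normalization), 1 (iHAC-free lines against ES) and 0 (iHAC2-iPS against iHAC-free lines), and normexp gave 24 for iHAC1-iPS against iHAC2-iPS. The 9 and the 1 come from fits with slide as a correlation only, which do not correct for slide. Leaving out 1 array gave 2 to 4, 0 to 1, 0 to 0, 0 to 3, 3 to 5 and 3 to 4 members called in the 6 comparisons, in the order of the report's counts against ES cells, then iHAC2-iPS against iHAC-free lines, iHAC1-iPS against iHAC2-iPS and iHAC1-iPS against iHAC-free lines.

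With the line of origin as a replicate block, 0 members were called between iHAC2-iPS and iHAC-free lines, as without it: Alpl gave -0.96 (limma adjusted p = 0.113), Podxl 1.04 (0.0773), Kit -1.93 (0.172) and Pecam1 -1.69 (0.319). No call changed under the block. The correlations of same-line samples did not exceed those of other pairs, so the data themselves give no sign of pairing.

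Signs turned as follows, in differences that were not called unless stated. In iHAC1-iPS against ES cells, Alpl gave 0.0425 with quantile normalization and 0.24 with the slide block, and Fut9 gave -0.14 and -1.10 on its probes A_52_P22474 and A_52_P40695. In iHAC2-iPS against ES cells, Fut9 gave -1.03 on A_52_P40695, Pecam1 0.83 on A_52_P349070 and Cd44 0.38 on A_51_P407053. In iHAC-free lines against ES cells, Fut9 gave -0.77 on A_52_P40695, Cd9 gave 0.0597 with normexp and 0.18 with quantile normalization, and Icam1 gave 0.0102 with normexp, 0.0844 with quantile normalization, 0.0039 with the slide block, 0.11 as the mean of its probes and 0.25 on A_52_P613241. In iHAC2-iPS against iHAC-free lines, Fut4 gave 0.12 with normexp, Fut9 7.96e-04 as the mean of its probes, 0.16 on A_51_P417758 and 0.38 on A_52_P655068, and Cd44 0.99 on A_51_P407053. In iHAC1-iPS against iHAC2-iPS clones, Fut9 gave 0.56 on A_51_P417758, Podxl -0.33 on A_51_P118284 and Cd44, called on the main probe, -0.17 on the dim probe A_51_P407053. In iHAC1-iPS against iHAC-free lines, Fut9 gave 0.72 on A_51_P417758. The cause was not tested.

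Leaving out 1 array turned signs of uncalled differences within these ranges: Alpl -0.17 to 0.0834, Fut4 -0.18 to 0.42 and Cd44 -0.39 to 1.11 in iHAC1-iPS against ES cells; Fut4 -0.39 to 0.0427, Pecam1 -0.26 to 0.43, Cd9 -0.0700 to 0.0387, Cd44 -1.15 to 0.35 and Icam1 -0.21 to 0.13 in iHAC-free lines against ES cells; Fut4 -0.49 to 0.0499 in iHAC2-iPS against iHAC-free lines; Fut9 -0.18 to 0.13 in iHAC1-iPS against iHAC2-iPS; Fut4 -0.00719 to 0.59 and Kit -0.76 to 0.18 in iHAC1-iPS against iHAC-free lines. Signal over background limits Pecam1 in iHAC1-iPS clones and Fut4 throughout.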
